A study of Mus musculus with 18 samples.

Results

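A small set of regions lost DNA methylation in splenic CD11b+ myeloid cells of Dnmt3aR878H/+ mice and lost little of it in splenic CD4+ T cells of the same genotype. The deposited tables list regions of neighbouring CpGs separately for each cell type, so a region listed for CD11b+ cells was paired with a region listed for CD4+ cells where they shared at least 50% of both lengths. On the autosomes, 128297 pairs had WT means that lay within 20 percentage points of each other. Of these, 561 (0.437%) had a mean at least 20 points lower in R878H than in WT in CD11b+ cells and at most 10 points lower in CD4+ cells. The difference of WT minus R878H is called the loss below, in percentage points, and the 561 regions are the members. The losses and the WT levels chose the 561 regions, so both are given as a description, with no test.

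Whole-genome bisulfite sequencing was done on magnetically selected cells from spleens, with CD4+ cells taken after CD11b+ cells had been removed. The design has 4 groups, CD11b+ and CD4+ cells from Dnmt3a+/+ (WT) and from R878H mice, with 4 replicate numbers in each. The R878H mice are written DNMT3A in the sample titles and Dnmt3aR878/+ in the sequencing methods of the study. The mutant allele was heterozygous and on a C57BL/6 background, and Vav1-iCre, a Cre recombinase driven in blood cells, switched it on. The labels give no age, no treatment and no Cre status of the control mice. For their transplantation work the authors pooled Cre-positive Dnmt3a+/+ mice with Cre-negative mice that carried the unrecombined allele under the name Dnmt3a+/+. The tables hold the authors' mean of each group, unnamed and read here with the first as WT, and no value for a mouse and no read depth, so no error between mice can be given and no difference between groups could be tested. Intervals below are 95% intervals over regions and cover counting error only, and regions are not replicates of a genotype.

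In the titles, a number after the letter S lies below 200 for all 4 entries of WT CD11b+ cells and above 200 for all 4 entries of R878H CD4+ cells. It lies above 200 for 2 of the 6 entries of R878H CD11b+ cells and for 1 of the 4 entries of WT CD4+ cells. What the number stands for is not given in the sources used here, and in CD4+ cells it cannot be told apart from genotype within these means. The labelled cell types were checked on WT means within 1 kb of the starts of marker genes. Across 35 myeloid genes the median was 49.5% in CD11b+ and 65.9% in CD4+ cells, and across 18 T cell genes it was 56.1% and 31.1%. Across 10 B cell genes the median was 41.9% in CD11b+ and 61.1% in CD4+ cells, and the part of B cells in the results was not tested.

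DNA methylation in mammals sits mostly on the cytosine of CpG dinucleotides, and DNMT3A is an enzyme that places it on sites that carry none. The R878H change in mice corresponds to the most frequent DNMT3A change of human clonal hematopoiesis. Enhancers that a blood lineage uses are usually less methylated in that lineage than in others, and CEBP, AP-1 and ETS proteins are families of DNA-binding factors that act at such elements, CEBP proteins and the ETS factor PU.1 above all in myeloid cells.

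The reference sequence of 3 of these regions is shown since the values of a region are means over CpG cytosines. Of the regions described below for a large loss difference, only those at Cx3cr1/Wdr48 and downstream of Socs3 held the CEBP motif. They were picked for that match, and Spi1 as a myeloid gene, so the 3 do not stand for the members. The tables count the cytosines of a region and do not say which CpGs they are. The sequences are the + strand of mm10, 5′ to 3′, with each CpG of the reference in capitals. The Cx3cr1/Wdr48 and Socs3 stretches (chr9:119904206-119904356 and chr11:117962105-117962385) are the whole parts shared by both tables and each hold a match to the CEBP motif used below. The Spi1 stretch (chr2:91089346-91089645) is the central 300 bases of the shared part and holds no match.
Cx3cr1/Wdr48: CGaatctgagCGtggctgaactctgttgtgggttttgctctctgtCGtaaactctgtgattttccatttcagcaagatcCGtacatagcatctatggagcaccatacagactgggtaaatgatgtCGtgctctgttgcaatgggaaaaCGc
Socs3: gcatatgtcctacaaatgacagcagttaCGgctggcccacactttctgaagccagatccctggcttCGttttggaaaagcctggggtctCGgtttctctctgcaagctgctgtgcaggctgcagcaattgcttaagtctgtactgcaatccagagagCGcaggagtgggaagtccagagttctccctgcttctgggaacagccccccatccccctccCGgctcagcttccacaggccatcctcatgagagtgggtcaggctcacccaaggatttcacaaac
Spi1: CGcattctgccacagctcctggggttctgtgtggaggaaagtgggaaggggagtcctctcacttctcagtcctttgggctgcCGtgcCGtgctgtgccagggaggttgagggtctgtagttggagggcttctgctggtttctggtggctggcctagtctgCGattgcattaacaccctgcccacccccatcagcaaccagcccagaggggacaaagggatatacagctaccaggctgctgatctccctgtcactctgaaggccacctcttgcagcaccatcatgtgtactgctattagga
The 3 stretches hold 6, 5 and 4 CpGs in this order.

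A loss of 20 points or more in CD11b+ cells was found in 14824 (11.6%) of the 128297 pairs, and a CD4 loss of at most 10 points in 76705 (59.8%). The 561 regions made up 3.78% of the CD11b losses, and 9538 further pairs lost at least 20 points in both cell types. The mirror set, with a CD4 loss of at least 20 and a CD11b loss of at most 10 points, counted 709 pairs (0.553%), which is 4.76% of 14884 CD4 losses. Most pairs past 20 points in CD11b+ cells were thus past 20 points in CD4+ cells too, and the 561 regions lie at the edge of the distribution.

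**Figure D1:**
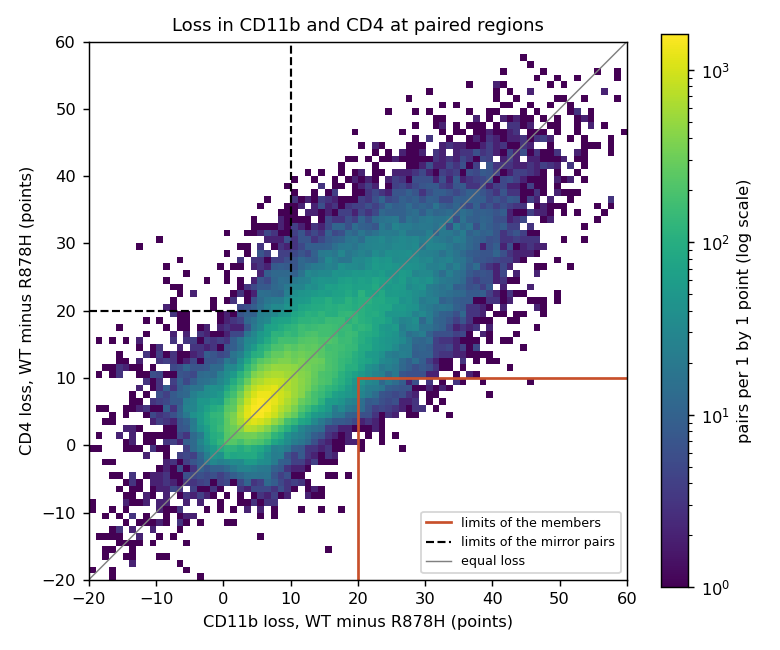
Loss in CD11b+ cells (x axis, percentage points) against loss in CD4+ cells (y axis, percentage points) for the autosomal pairs, coloured by the number of pairs per 1 by 1 point on a log scale. The members fill the corner below the solid lines, and most of them lie close to the corner where both limits meet, with a median CD11b loss of 22.3 and a median CD4 loss of 8.25 points.

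Of the 28378 autosomal CD11b regions with a loss of at least 20 points, 2321 (8.18%) had no overlapping region in the CD4 table and 17293 were paired. The other 8764 were overlapped, but by no CD4 region that shared at least 50% of the CD11b length and also of its own length. The condition on WT levels left out 210 of 771 pairs that met both loss limits, 135 with WT higher in CD4+ cells and 75 with WT lower there.

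The median level of the 561 regions was 77.9% in WT (quartiles 69.2% and 84.2%) and 54.5% in R878H (45.4% and 61.4%) in CD11b+ cells. For CD4+ cells it was 87.8% in WT (71.7% and 92.8%) and 79.8% in R878H (64.7% and 85.0%). R878H CD11b+ cells thus kept a median of 70.5% of the WT level and R878H CD4+ cells 90.2%. Across all pairs the median loss was 7.96 points in CD11b+ and 8.43 points in CD4+ cells. The CD4 loss of the 561 regions had a median of 8.25 points. The rule capped it at 10 points and set no such limit on all pairs, so these CD4 medians are not a like comparison. Few of the 561 regions held their full CD4 level. The CD4 loss was below 5 points in 44 regions (7.84%), against 22.4% of all pairs. It was below 2 points in 7 (1.25%, against 5.94%) and not above 0 in 2 (0.357%, against 2.30%). A loss of 8 to 10 points was found in 317 regions (56.5%), against 13.0% of all pairs, whose CD4 loss has no upper limit. The CD11b loss was at most 22 points in 256 regions (45.6%) and at least 30 points in 23.

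The limits of the rule cut through a continuous range of values. Within 1 point of the CD11b limit lay 150 of the regions on the inner side and 189 pairs on the outer side, and 177 of the regions lay within 1 point of the CD4 limit. The regions nearest inside the CD11b limit, with Pum2 and Map3k4 as nearest starts, lost 20 and 20.02 points, and the pairs nearest outside, next to U90926 and Dapp1, lost 19.975 and 19.96. At the CD4 limit the regions nearest Sox4 and Diaph3 lost 10.0 points each in CD4+ cells, and the pairs nearest Usp25 and March5, just outside, lost 10.02 and 10.021. At the WT limit the regions nearest Mlst8 and Oasl2 differed by 19.984 and 19.942 points between the WT groups, and the pairs left out nearest Dusp1 and Foxp1 by 20.007 and 20.05.

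The regions were short and rested on few sites. The median length was 479 bp with a median of 10 CpG cytosines, counted on both strands, and 341 of the 561 (60.8%) held exactly 10, the smallest number listed, against 54.6% of all pairs and 46.1% of pairs lost in both cell types. The share of CD11b losses that were members was 4.59% (4.13% to 5.08%) among regions of 10 cytosines and 0.418% (0.0739% to 2.33%) among those of 31 or more, where 1 of 239 was a member. It was 6.09% at CD11b losses of 20 to 25 points and 0.151% at 40 points or more, again 1 region. By WT level of CD11b+ cells it was 6.65% (4.54% to 9.63%) at 30% to 40%, 1.24% (0.751% to 2.03%) at 40% to 50%, 3.98% at 70% to 80%, 8.55% at 80% to 90% and 13.8% (10.1% to 18.6%) at 90% or more, so that it was lowest at intermediate levels. Below 30% it was 5.56%, on 2 of 36 regions.

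Of the regions with the largest difference between CD11b and CD4 loss, at most 1 per gene and none from chromosome 18, 9 are described here, which lie in or near Abr, Spi1, Klf14, Itpr3, Szrd1, Cx3cr1/Wdr48, Macrod2, Rassf3 and Socs3. They were chosen for this difference. The region of Abr, a regulator of small GTPases, lies inside the gene (chr11:76436977-76437890) in an exon of a transcript without coding sequence. It went from 81.8% in WT to 36.0% in R878H in CD11b+ cells and from 90.8% to 81.2% in CD4+ cells. Another CD4 region that overlaps the same CD11b region lost 36.1 points, so the Abr pair depends on where the CD4 table placed its boundaries.

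Spi1 encodes PU.1, an ETS factor required for myeloid and B cell development. Its region (chr2:91089106-91089710) lies in an intron of the longest transcripts and 6386 bp upstream of the nearest start of a Spi1 transcript. The mean was 66.4% in WT and 33.2% in R878H for CD11b+ cells, against 84.5% and 80.2% for CD4+ cells. The CD4 region next to it, which overlaps the other end of the CD11b region, fell from 71.0% to 49.7%, a loss of 21.3 points. Within 10 kb of the centre, the other 14 CD4 regions lost 4.35 to 30.6 points with a median of 14.5, and the other 7 CD11b regions lost 2.08 to 23.6 points with a median of 19.1. Spi1 therefore lost methylation at several places in both cell types, and the pair marks 1 stretch in which the cell types differed.

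The region of Cx3cr1/Wdr48 (chr9:119904206-119904357) lies in an intron of Cx3cr1, the fractalkine receptor of monocytes and macrophages, and overlaps coding sequence of Wdr48, a cofactor of deubiquitinating enzymes. It went from 85.2% to 50% in CD11b+ cells and from 94.8% to 85.8% in CD4+ cells. No other CD4 region overlapped it or lay within 1 kb with a larger loss. Its 6 other CD11b regions within 10 kb lost 0.850 to 16.8 points, all less than the 35.2 points of the member. Farther off, 2 of the 29 pairs in Cx3cr1 or within 5 kb of it lost at least 20 points in both cell types.

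**Figure D2:**
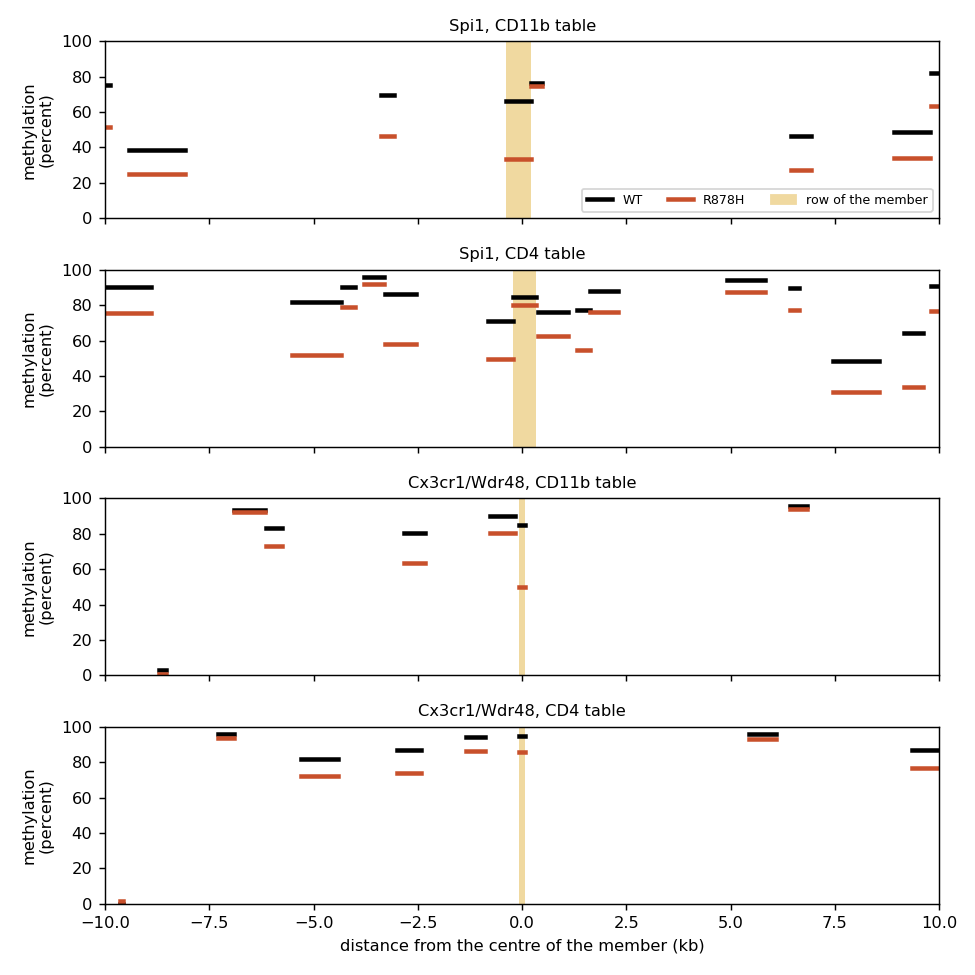
Group means (y axis, percent) of every listed region within 10 kb of the members at Spi1 and at Cx3cr1/Wdr48, against distance from the centre of the member (x axis, kb), with WT in black, R878H in red and the rows of the member shaded. At Spi1 several CD4 regions lost over 20 points, while at Cx3cr1/Wdr48 the largest CD4 loss outside the member was 12.6 points.

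The region nearest Itpr3, a calcium channel of the endoplasmic reticulum, lies between genes 8590 bp upstream of its start (chr17:27048395-27048714). It fell from 84.2% to 57.7% in CD11b+ cells and was 94.4% in WT and 94.6% in R878H CD4+ cells. It is the region with the largest CD11b loss among those not lower in R878H CD4+ cells, and a neighbouring CD4 region that overlaps it lost 13.2 points.

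Socs3 encodes an inhibitor of cytokine signalling through JAK and STAT proteins, and 2 of the named regions flank it. The one 6801 bp downstream of its start (chr11:117961995-117962385), beyond the end of the gene, went from 77.7% to 43.1% in CD11b+ cells and from 93.1% to 83.7% in CD4+ cells. The one 5372 bp upstream (chr11:117974558-117975002) was low throughout, at 30.9% and 10.9% in CD11b+ and 11.6% and 11.8% in CD4+ cells. At the downstream one only the paired CD4 region overlapped, and the largest CD4 loss within 1 kb was 19 points. At the upstream one an overlapping CD4 region lost 26.4 points, and the largest CD4 loss within 1 kb was 32.55 points.

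The region of Macrod2, an ADP-ribose hydrolase, lies in an intron (chr2:140693674-140693994) and had means of 84.4% and 51.7% in CD11b+ and 91.6% and 84.7% in CD4+ cells. The Szrd1 region, also intronic (chr4:141133037-141133511), had means of 78.7% and 47.3% in CD11b+ and 93.5% and 88.5% in CD4+ cells. In Rassf3, which encodes a Ras association domain protein, the region covers coding sequence (chr10:121416216-121417051) and had means of 77.3% and 42.9% in CD11b+ and 91.9% and 82.9% in CD4+ cells. The region nearest Klf14, a zinc finger factor gene 186567 bp away (chr6:31145645-31145893), had means of 74.7% and 36.2% in CD11b+ and 93.2% and 83.3% in CD4+ cells. At Rassf3 an overlapping CD4 region lost 30.2 points and at Szrd1 one lost 17.0 points, while at Macrod2 and Klf14 only the paired CD4 region overlapped. Within 1 kb the largest CD4 loss was 7.38 points at Macrod2 and 22.9 points at Klf14.

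**Figure D3:**
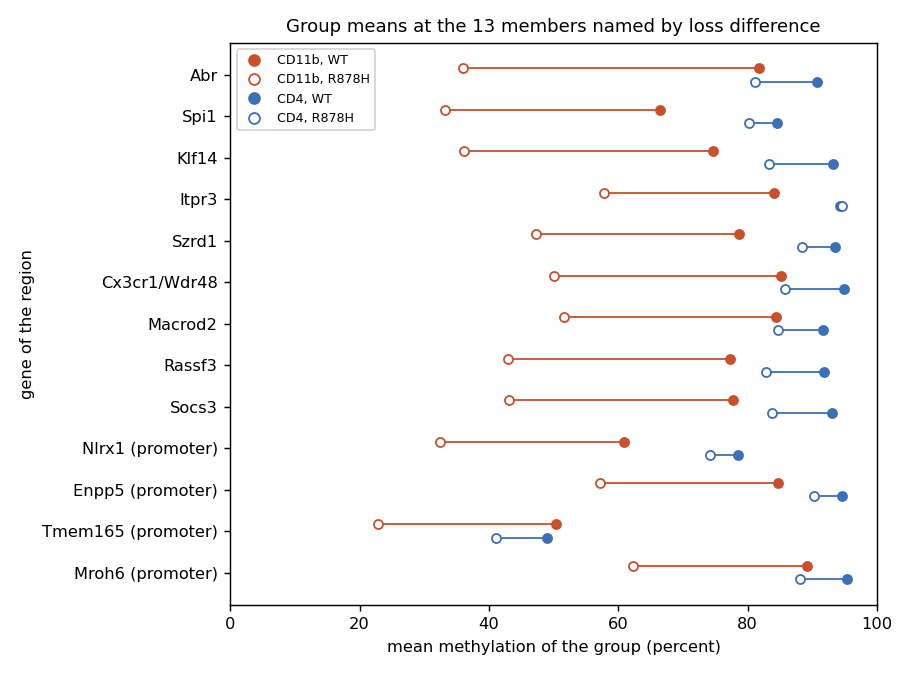
Group means (x axis, percent) at 9 members with a large loss difference and at 4 members within 1 kb of a start, with filled points for WT, open points for R878H, red for CD11b+ and blue for CD4+ cells. The lines show the loss, and WT CD4+ cells lie above WT CD11b+ cells in 12 of the 13, Tmem165 being the exception.

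Of the 561 regions, 38 lay within 1 kb of a start of a protein-coding transcript. The region of Nlrx1, a mitochondrial member of the NLR family of innate immune proteins, covers a start and an untranslated exon (chr9:44266414-44267030), and went from 60.8% to 32.5% in CD11b+ and from 78.6% to 74.2% in CD4+ cells. Enpp5, of the ectonucleotide pyrophosphatase/phosphodiesterase family, held one 945 bp upstream (chr17:44077382-44077868), with 84.8% and 57.2% in CD11b+ and 94.6% and 90.3% in CD4+ cells. Tmem165, a Golgi membrane protein needed for glycosylation, held one 464 bp upstream (chr5:76183201-76183416), with 50.4% and 22.8% in CD11b+ and 48.9% and 41.1% in CD4+ cells. At Mroh6 the region covers a start and coding sequence (chr15:75888686-75888798), with 89.2% and 62.3% in CD11b+ and 95.4% and 88.2% in CD4+ cells. Around Nlrx1 and Tmem165 no CD4 region within 1 kb lost more than 7.88 points, whereas around Enpp5 and Mroh6 the largest such losses were 20.9 and 28.1 points.

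CD4 regions beside the members were looked at in the same way for all 561. In 434 the paired CD4 region, which the rule limits to 10 points, was the only one that overlapped. Of the other 127, every overlapping CD4 region lost at most 10 points in 41, and at least 1 lost 20 points or more in 37 (29.1%). Within 1 kb, 423 of the 561 had more than 1 CD4 region, and in these the counts were 179 and 98 (23.2%). With the CD4 loss taken as the mean over all overlapping CD4 regions, weighted by their CpG cytosines, 56 of the 127 lay at or below 10 points and 8 at 20 points or more.

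Position was not used by the rule. The 561 regions lay in introns in 48.3% (44.2% to 52.4%), against 41.4% of pairs lost in both cell types, 42.2% of mirror pairs and 39.8% of all pairs. They overlapped exons away from starts in 12.5% (10.0% to 15.5%), against 7.60%, 9.03% and 9.30%. Promoters held 6.77% (4.97% to 9.16%) of them, near the 6.10% of all pairs and below the 12.6% (11.9% to 13.3%) of pairs lost in both and the 10.2% (8.14% to 12.6%) of mirror pairs, and 32.4% lay between genes. A repeat-masked share above 50% of the bases was found in 2.32% (1.36% to 3.92%) of them, 1.05% of pairs lost in both, 2.54% of mirror pairs and 5.74% of all pairs. The promoter share depends on the starts used: with 1 start per gene it was 3.74% in the 561 regions, 3.92% in all pairs and 7.92% in pairs lost in both.

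**Figure D4:**
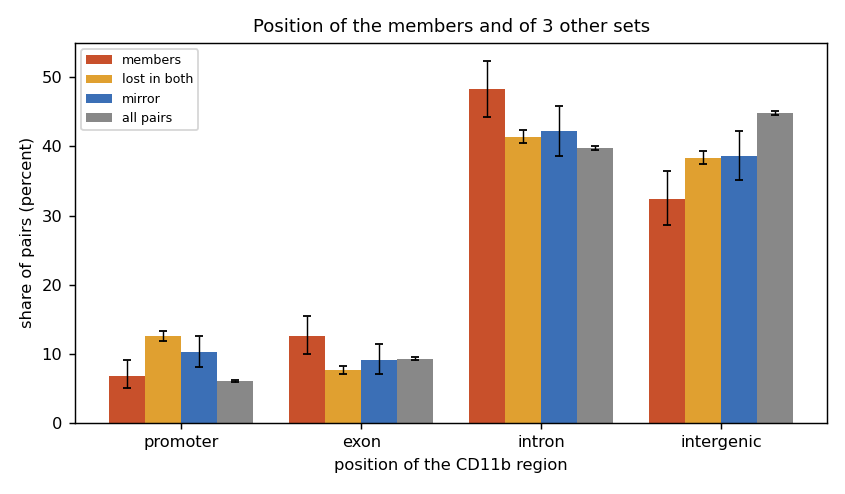
Share of regions (y axis, percent) at promoters, in exons, in introns and between genes (x axis) for the members, pairs lost in both cell types, mirror pairs and all pairs, with 95% Wilson intervals. The members stand at 6.77% at promoters and 48.3% in introns, against 12.6% and 41.4% of pairs lost in both.

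The regions were denser in CpG than listed pairs in general, with a median of 1.82 CpGs per 100 bp (1.72 to 1.91) against 1.47 in all pairs, 2.02 in pairs lost in both and 1.58 in mirror pairs. The median GC content was 48.3%, against 45.8%, 48.9% and 46.3%. After the CpG, the next base was G in 28.6% and T in 28.6% of cytosines, and these shares were 25.9% and 30.2% in all pairs and 29.6% and 26.9% in pairs lost in both.

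In WT mice, 411 of the 561 regions (73.3%) had a higher level in CD4+ than in CD11b+ cells, and the median difference was 6.28 points (5.36 to 7.22), within the limit of 20 points set by the rule. Pairs lost in both cell types had a median of 5.67 points with 75.6% higher in CD4+ cells. Mirror pairs had a median of -0.100 points with 49.9% higher there, and all pairs of 1.08 points with 61.7%. The WT level of CD4+ cells was at least 80% in 66.8% of the regions, against 27.0% of pairs lost in both and 71.2% of all pairs.

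Motifs were searched on both strands in the 300 bases around the centre of the shared part, as letters only. For myeloid cells, the letters were TTGCNNAA for CEBP factors, which direct granulocyte and monocyte genes, and GGAAGT for ETS factors, the family of PU.1. The AP-1 factors of activated cells were read as TGANTCA, and the IRF factors of interferon responses as a pair of GAAA runs with 2 bases between. For lymphoid and progenitor cells, the letters were TGTGGT for the RUNX factors of blood development, CTTTGA for the TCF/LEF factors of T cells, AGATAA for the GATA factors of erythroid and T cells, and CAGCTG for the E-box factors of lymphoid cells. The letters of ETS and IRF can share an end base but no longer stretch. The CEBP motif stood in 122 of the 561 windows, 21.7% (18.5% to 25.3%), against 13.0% of all pairs, 12.5% (11.9% to 13.2%) of pairs lost in both cell types and 12.6% (10.3% to 15.2%) of mirror pairs. In the Cx3cr1/Wdr48 stretch shown above it reads ttcagcaa at positions 68 to 75, on the other strand, and in the Socs3 stretch ttgcttaa at positions 128 to 135. A match is a run of letters and not evidence of binding.

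The AP-1 motif stood in 10.3% (8.08% to 13.1%) of the 561 windows, 10.2% of all pairs and 11.7% of pairs lost in both, and in 20.5% (17.6% to 23.6%) of mirror pairs. The ETS motif stood in 26.4% (22.9% to 30.2%), above the 20.4% of all pairs and near the 27.5% of pairs lost in both and the 25.4% of mirror pairs. The RUNX motif was found in 24.8%, TCF/LEF in 19.1%, E-box in 16.4%, GATA in 15.5% and IRF in 4.10%, against 22.2%, 20.7%, 14.9%, 17.3% and 4.26% of all pairs.

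The CEBP share was looked at further, in sets chosen after it had been seen. Windows with a GC content between the quartiles of the members, 44.0% and 51.3%, held it in 22% (17.6% to 27.1%) of members, 12.3% of all pairs and 13.5% of pairs lost in both. Matches with no CpG inside were found in 21% of members and 12.4% of all pairs. Among pairs with a CD4 loss of at most 10 points, which the members share, the motif stood in 12.5% where the CD11b loss was below 10 points, in 15.1% at 10 to 15 points and in 16.3% (14.7% to 18.1%) at 15 to 20 points. Within the members the motif was counted by another measure, the loss difference. It stood in 19.6% (11.3% to 31.8%) of the 56 members with a difference of at least 20 points. Below 15 points it stood in 20.6% (16.4% to 25.5%), and members between these limits were not counted apart. By CD11b loss, the 23 members at 30 points or more held it in 21.7% (9.66% to 41.9%). Intervals this wide cannot show whether the share rises within the members. In CD11b regions that lost at least 20 points and had no overlapping CD4 region, the motif stood in 15.4% (14.0% to 17.0%). Of the 135 pairs that met both loss limits and were left out because WT was at least 20 points higher in CD4+ cells, 33.3% (25.9% to 41.6%) held it, and of the 75 left out because WT was at least 20 points lower there, 2.67% (0.734% to 9.21%) did. Members with WT higher in CD4+ cells held it in 23.6% (19.8% to 27.9%) and the other 150 in 16.7% (11.6% to 23.4%). The share was 10.5% (4.17% to 24.1%) in the 38 promoter members and 23.6% in intronic ones.

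**Figure D5:**
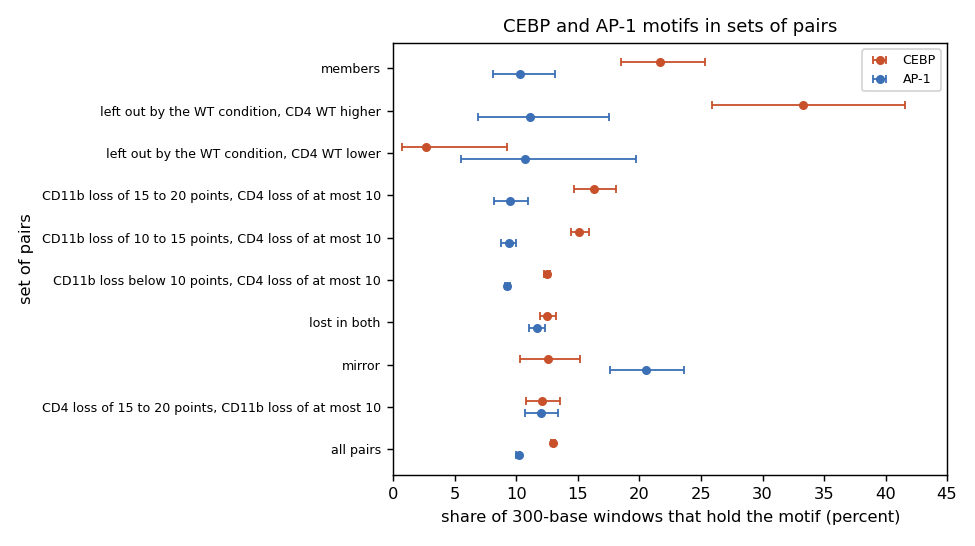
Share of 300-base windows that hold the CEBP or the AP-1 motif (x axis, percent) in sets of pairs (y axis), with 95% Wilson intervals. CEBP stands at 21.7% in the members and 33.3% in pairs left out for a higher WT level in CD4+ cells, and AP-1 is highest in the mirror pairs at 20.5%.

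The regions overlapped the bodies of 356 protein-coding genes. Of 15907 genes with a pair within 5 kb, 441 (2.77%) had a member and 247 of these 441 (56.0%) also had a pair lost in both cell types, against 28.0% of all 15907. Genes with a member had a median of 9 pairs and all genes a median of 3, and this was not corrected for. A mirror pair was found near 28 of the 441 (6.35%), against 3.31% of all 15907. A further 144 regions had no protein-coding gene within 5 kb. Per chromosome, the share of pairs that were members ran from 0.205% on chromosome 7 to 0.667% on chromosome 17.

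Among 8 gene lists, members lay at few genes. The counts are given beside the 2.77% of all genes with a member and the 3.31% with a mirror pair. Of 35 myeloid genes with a pair, 3 had a member: Spi1, Cx3cr1 and Ngp, the neutrophilic granule protein. The Ngp region overlaps coding sequence (chr9:110421732-110422329) and went from 84.3% to 61.9% in CD11b+ and from 92.2% to 83.9% in CD4+ cells. A mirror pair was found at 3 of the 35 too, as many genes as had a member. A pair lost in both cell types was found at 13 of the 35 (37.1%), against 28.0% of all genes. Of 33 T cell genes only Tox, a factor of T cell development, had a member, over coding and untranslated sequence at the end of the gene (chr4:6688114-6688480), with 86.4% and 61.3% in CD11b+ and 95.1% and 88.6% in CD4+ cells, and a CD4 region within 1 kb lost 26.1 points. Mirror pairs were found at 2 of these 33 genes and pairs lost in both cell types at 6 (18.2%).

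Of 26 stem and progenitor genes, 3 had a member, Erg, Prdm16 and Etv6, and 1 had a mirror pair. A pair lost in both cell types was found at 21 (80.8%), against 28.0% of all genes. These 26 genes had a median of 8 pairs each, more than the 3 of all genes, so that their shares are not a like comparison. Erg, an ETS factor of stem cells, held 2 in introns. The first (chr16:95388161-95388615) had means of 76.4% and 51.1% in CD11b+ and 93.8% and 85.9% in CD4+ cells, and no CD4 region within 1 kb lost more than the paired one. The second (chr16:95461128-95461385) had means of 91.3% and 65% in CD11b+ and 94.3% and 84.6% in CD4+ cells, and a CD4 region within 1 kb lost 39.7 points. In Prdm16, a zinc finger regulator of stem cell maintenance, the intronic region (chr4:154617266-154617679) had means of 86.3% and 65.5% in CD11b+ and 90.2% and 84.8% in CD4+ cells, and an overlapping CD4 region lost 34.7 points. Etv6, an ETS repressor of blood stem cells, held one over coding sequence (chr6:134233314-134233767), with 76.5% and 53.5% in CD11b+ and 93.7% and 84.6% in CD4+ cells. Of the CD4 regions within 1 kb of the Etv6 region, none lost more than the paired one.

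Of 20 osteoclast genes, Traf6 and Itgb3 had a member. Traf6, a ubiquitin ligase downstream of RANK and of interleukin-1 and Toll-like receptors, held it over its untranslated sequence (chr2:101698157-101698312), with 84.1% and 55.8% in CD11b+ and 94.1% and 86.0% in CD4+ cells. Itgb3, the integrin subunit of platelets and osteoclasts, held it in an intron (chr11:104665828-104666372), with 63.3% and 40.7% in CD11b+ and 77.2% and 69.0% in CD4+ cells. The largest CD4 loss within 1 kb was 10.8 points at Traf6 and 14.8 points at Itgb3. None of 13 B cell, 21 inflammatory, 8 erythroid and megakaryocyte or 1 NK gene with a pair had a member. Among these lists a mirror pair was found only at 1 of the B cell genes.

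Members numbering 3 or more fell in the bodies of 3 genes, of 356 with a member in the body. All 3 are long, with Arid1b at chr17:4994332-5347656 and Maml3 at chr3:51685907-52105076. The pairs in each gene were not counted, so these numbers cannot be set beside the 0.437% of all pairs and are not corrected for gene length. Arid1b, a subunit of the BAF chromatin remodelling complex, held 4 in introns, with CD11b losses of 21.8 to 26.4 and CD4 losses of 7.94 to 9.10 points, and CD4 regions within 1 kb of 2 of them lost up to 31.3 points. Maml3, a coactivator of Notch, held 3 in introns, with CD11b losses of 21.6 to 26.0 and CD4 losses of 8.60 to 8.95 points. The largest CD4 loss within 1 kb of these was 15.35 points. Gm20388 is a gene model that spans many others on chromosome 8, and its 4 members lie also in Piezo1, Gse1, Rnf166 or in none of these.

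The members with the most CpG cytosines in the CD11b table lay in Sptssa, a subunit of serine palmitoyltransferase, with 38 cytosines, Abr with 29 and Uck2, a uridine-cytidine kinase, with 28. The Sptssa region is intronic (chr12:54651462-54652362) and had means of 32.5% and 11.3% in CD11b+ and 29.99% and 21.01% in CD4+ cells, and an overlapping CD4 region lost 20.5 points. The Uck2 region is intronic (chr1:167248620-167249407) and had means of 85.8% and 62.7% in CD11b+ and 88.7% and 81.7% in CD4+ cells, and no overlapping CD4 region lost more than 9.83 points. Within 1 kb of the Uck2 region the largest CD4 loss was 14.3 points.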

How the data were processed

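Splenic CD11b+ and CD4+ cells were sequenced after bisulfite conversion. Reads were mapped to mm10 with BISCUIT and regions were found with metilene, whose versions and minimum coverage per site are not given in the sources used here. For a differentially methylated region the study required over 10 CpGs, group means over 20 points apart and a false discovery rate under 0.05, and the deposited tables also list regions of 10 cytosines and with smaller differences. The deposited table of each cell type has no header and gives, per region, the authors' group means of methylation in percent, beside q-values, p-values and the difference of means from the authors' own comparison, which were not used. The first group was read as WT from the lower R878H levels that the study describes, and the tables do not name it. There are 0 columns of per-sample values, and the depth behind each mean is unknown, although the study states the coverage it sequenced to. In regions of 10 cytosines all means (100% at a tolerance of 0.05) were whole multiples of the step that 4 columns give, also in R878H CD11b+ cells with 6 label entries, where 2 replicate numbers occur in 2 entries each.

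Rows were paired at a shared part of at least 50% of both lengths. Losses were rounded to 3 decimals before the limits of 20 and 10 points were applied. Coordinates count from 1 in mm10, sequence came from RefSeq's GRCm38.p6 and genes from GENCODE M21 (protein-coding). A region at most 1 kb from a transcript start is a promoter; otherwise exon, intron or between genes. Genes were given regions within 5 kb. Shares have Wilson and medians order-statistic intervals at 95%. Python 3.11.15, pandas 2.3.3, numpy 2.4.6, scipy 1.17.1 and pysam 0.24.0 were used. Pairing, rule and motif search were tested on simulated data.

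The members, gene lists and tests were chosen with earlier results of these data known. Named regions, without chromosome 18, which holds 13 members, are the 10 with the largest loss difference, at most 1 per gene, of which 1 is not reported here and was left out of its list; the next 4 at promoters; up to 4 not lower in R878H CD4+ cells; those of genes with 3 or more; up to 3 genes per list; the 3 with most cytosines; and the 2 nearest each side of each limit.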

Additional observations from a re-analysis of the deposited data

How the results depend on the processing

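No paired analysis was possible because the tables hold group means and no value for a mouse, and for the same reason no replicate could be left out. The number of regions, 561, was 152 with a shared part of at least 80% of both lengths, 23 with a CD11b loss of at least 30 points, 45 with a CD4 loss of at most 5 points, 319 with WT means within 10 points, 150 with more than 10 cytosines in both tables and 7 with at least 20, the last chosen after the data had been seen. CpG-weighted CD4 values gave 592, of which 481 were among the 561 (434 of the 561 could not change), the X chromosome gave 569, and merging within 1000 bp left 561. The promoter share was 12.3% within 2 kb of a start (all pairs 9.87%), 3.74% with 1 start per gene, and 0 both among the 23 regions with a CD11b loss of at least 30 points and among the 7 of at least 20 cytosines. The median CpG density was 2.23, 1.99 and 2.29 per 100 bp at a CD11b loss of at least 30 points, above 10 and at 20 or more cytosines. The median WT difference was 12.3 points at a CD11b loss of at least 30, 2.91 with WT means within 10 points, and 0.162 at 20 or more cytosines. The share with a CD4 loss below 5 points was 3.29% at 80% overlap, 4.35% at a CD11b loss of at least 30, 97.8% at the CD4 limit of 5, 4.00% above 10 cytosines, 5.57% with weighted CD4 values and 0 at 20 or more cytosines. Motif shares in the whole shared part, whose median length was 385 bp in the 561 regions and 453 bp in all pairs, were 26.9% for CEBP, 34.6% for ETS, 30.5% for RUNX, 13.7% for AP-1, 21.9% for GATA, 26.2% for TCF/LEF and 22.6% for E-box, against 20%, 29.9%, 32.7%, 15.9%, 26.3%, 30.7% and 21.9% of all pairs. In alternatives chosen after the data had been seen, CEBP stood in 18.5% with WT means within 10 points, 26.7% above 10 cytosines and 28.6% at 20 or more, and AP-1 in 6.67% at the CD4 limit of 5 and 14.3% at 20 or more cytosines. The other alternatives stayed within the interval of the reported value. The depth behind each mean is not in the tables, so the counting error of a mean is unknown.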
